A study of Sus scrofa with 8 samples.

Results

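The genes around PKP2 on pig chromosome 5 were compared between heart tissue with a heterozygous PKP2 knockout and wild-type tissue. PKP2 lies on the forward strand from 41424687 to 41509590, in coordinates that match RefSeq's annotation of Sscrofa11.1. Members of the interval are the genes on the same chromosome whose start lies within 10 Mb of the PKP2 start, with PKP2 itself left out. Position alone decides membership, although the interval was chosen with earlier results of these data known. The interval holds 149 of the 30550 genes in the table, 80 at lower coordinates than PKP2 and 69 at higher ones. By biotype, 95 are protein coding, 29 are long noncoding RNAs and 18 are pseudogenes. The remaining members are 3 miRNAs, 2 tRNAs and 2 unnamed loci without a biotype.

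RNA of the pig (Sus scrofa) right ventricle was sequenced in 4 libraries with a heterozygous PKP2 knockout (PKP2_het) and 4 wild-type libraries (WT). Arrhythmogenic cardiomyopathy, the heart muscle disease that the series sets out to model, can be inherited through PKP2 variants. The labels state no treatment, age, sex or litter, and they do not describe how the PKP2 gene was altered or on which chromosome background. Whether each library is a separate animal is not stated, so p-values reflect only how these libraries spread. An effect of the edit on its neighbours and a different stretch of chromosome inherited along with the edit cannot be told apart in this design. In bulk tissue, fewer cells of a type and less RNA per cell cannot be told apart either.

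Plakophilin 2, the product of PKP2, is a protein of the desmosomes, the junctions that hold heart muscle cells together. An edit can act in cis, on genes of the same chromosome copy, for instance where regulatory DNA, promoters or transcripts are shared between neighbours. Genes close to an edited site are also inherited together with it, so alleles of the whole stretch can differ between carriers and non-carriers. The interval holds genes of mitochondria (YARS2, DNM1L, ETFRF1), of the muscle membrane and sarcomere (SSPN, LRRC10), of cell adhesion and signalling (PPFIBP1, STK38L) and of transcription (MED21, INTS13).

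The libraries held between 23637697 and 31313628 fragments assigned to genes. PKP2_het replicate 3 stood apart from the other 7. Its share of mitochondrial transcripts was 52.1%, against 21.1% to 37.6% elsewhere, and on the first principal component (41.6% of the variance) it lay at 47.8, with the others between -16.5 and 3.74. Results that changed direction or call without this library are given both ways. The labels name cardiomyocytes as the cell type although the protocol describes ventricular tissue. Of 10 cardiomyocyte markers, 9 were in the table, and their summed level was 22917 to 32865 FPKM in PKP2_het and 24230 to 27230 FPKM in WT. NPPB was the 1 of these 9 markers with a mean under 1 FPKM. Fibroblast, endothelial and smooth muscle markers were present as well, with ranges that overlapped between the groups. Summed T and NK cell markers did not overlap, at 1.73 to 4.83 FPKM in PKP2_het and 9.27 to 10.8 FPKM in WT. Of these 4 markers, CD2 and CD3E averaged under 1 FPKM, so the sum rested mostly on GNLY and NKG7. Of 3 tested, 1 (GNLY) was called, and their part in the members' values was not tested. FPKM is the number of fragments divided by gene length and by library depth, the latter here set so that the median gene is level across libraries.

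The targeted gene was lower in the knockout libraries. PKP2 stood at 45.4, 40.7, 24.6 and 45.9 FPKM in PKP2_het replicates 1 to 4 and at 52.9, 62.2, 61.1 and 72.8 FPKM in WT replicates 1 to 4. All 4 knockout libraries lay below all 4 wild-type libraries, and their mean came to 62.9% of wild type. On the log2 scale the difference was -0.69 (standard error 0.20). An exact permutation test, two-sided, gave p = 0.0286, the lowest value possible with 70 relabellings, while the limma adjusted p over all genes was 0.164. Leaving out PKP2_het replicate 3 gave 70.7% of wild type and a log2 fold change of -0.48.

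None of the members expressed highly enough for the planned test was called after adjustment over all genes. A noncoding RNA below that filter, LOC110260700, was called with other filters and is described further down. Of the 149 members, 58 reached 1 FPKM in 4 or more libraries and were tested, namely 56 protein-coding genes, 1 long noncoding RNA and 1 unnamed locus. At a limma adjusted p under 0.05, 0 of these 58 were called, against 1.86% of all 10757 tested genes (200 genes), and the smallest adjusted p of a member was 0.208. At an unadjusted p under 0.05 there were 4 members (CASC1, PPFIBP1, RAB3IP and an unnamed locus), which is 6.90% against 12.8% of all tested genes. The groups did not overlap for 1 member, RAB3IP, against 9.19% of all tested genes. None of these shares lay above the share over all genes.

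Log2 fold changes of the members were centred close to 0. They were positive for 29 members and negative for 29, with a median of -0.01 beside -0.02 for all tested genes. They ranged from -0.52 (LRRC10) to 0.52 (the unnamed locus at 33166239 to 33167737). The median absolute log2 fold change was 0.12 for the members and 0.14 for all tested genes. A median standard error of 0.14 sets the precision of these estimates. A 2-fold fall was converted to the log2(FPKM + 1) scale at each gene's WT mean, for instance -0.39 for PHLDA1 and -0.98 for LRRC10. The 95% interval of the log2 fold change excluded that fall for 53 of 58 members, LRRC10, PHLDA1, YARS2, SSPN and CASC1 being the exceptions. It excluded a doubling, converted likewise, for 54 of 58, and both for 50. A fall as large as that of PKP2, converted likewise, was excluded for 45 of 58. With all 8 libraries, 0 members had an estimate that low. Without PKP2_het replicate 3, PKP2 was at -0.48 and the lowest member at -0.45, values not converted to each gene's level. At its low level (WT mean 1.75 FPKM), CASC1 then fell by a larger share of WT than PKP2 did.

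**Figure D1:**
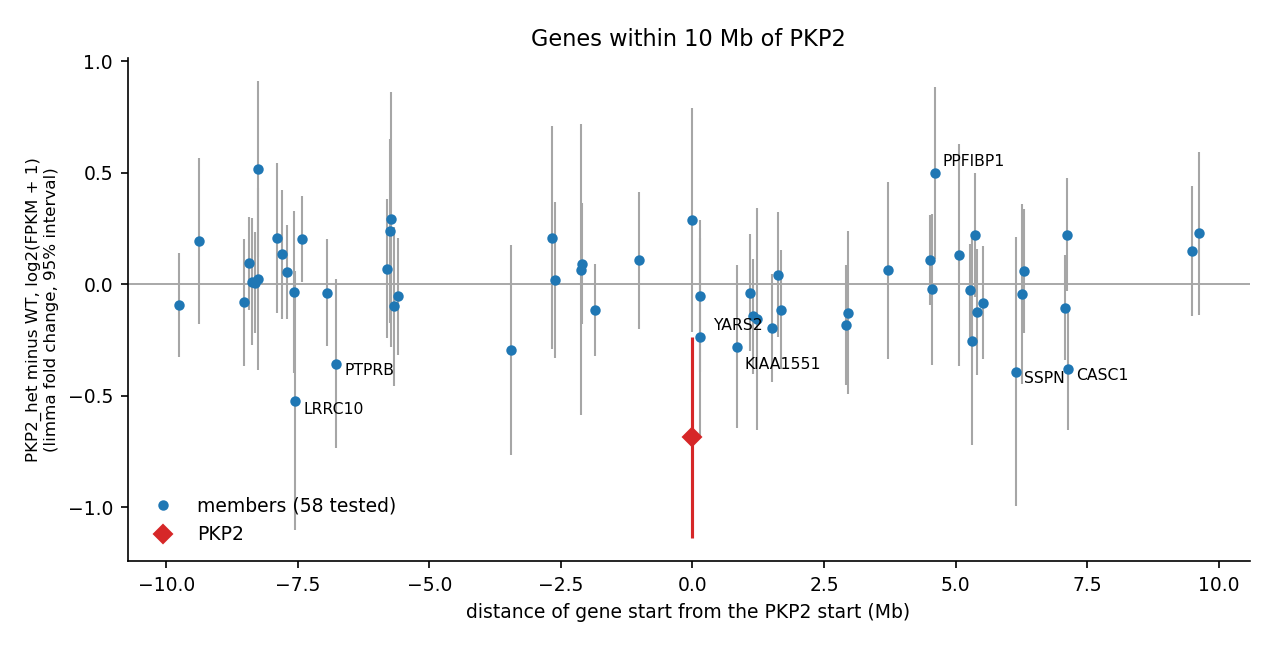
Log2 fold change on the log2(FPKM + 1) scale, PKP2_het minus WT (vertical axis), of the 58 tested members (blue, with 95% intervals) and of PKP2 (red diamond) against the distance of the gene start from the PKP2 start in Mb (horizontal axis). Members scatter around 0 between -0.52 and 0.52, and PKP2 lies below them at -0.69. This scale understates changes of low genes, so their distance from PKP2 is partly one of level.

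Distance from PKP2 was described in bins. The 4 tested members within 1 Mb had a median log2 fold change of -0.14, the 8 from 1 to 2 Mb -0.11, the 11 from 2 to 5 Mb 0.06, and the 35 from 5 to 10 Mb 0.01. The first 3 bins hold fewer than 20 genes each, and without PKP2_het replicate 3 the 2 nearest bins had medians of 0.04 and 0.00. The negative medians near PKP2 therefore rested on that library. Genes 10 to 20 Mb away (99 tested, 1 called) and over 20 Mb away on the chromosome (394 tested, 10 called) both had a median of -0.01.

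The 2 sides of PKP2 differed in sign. At lower coordinates 19 of 29 tested members had a positive log2 fold change (median 0.06), and at higher coordinates 10 of 29 did (median -0.05). Without PKP2_het replicate 3 the counts were 21 of 29 and 14 of 29. When libraries were rescaled to equal sums, which lowered the median of all tested genes to -0.23, they were 7 of 29 and 2 of 29. Neither side held a called gene with all 8 libraries, and the difference between the sides is given as a description without a test.

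The gene closest to PKP2 is LOC106507506, a long noncoding RNA on the reverse strand whose annotated body ends just before PKP2 begins. It stood at 2.02, 3.60, 1.88 and 3.30 FPKM in PKP2_het and at 1.31, 2.41, 1.39 and 3.13 FPKM in WT. The groups overlapped widely. The difference on the log2 scale was 0.29 (standard error 0.22, limma adjusted p = 0.639), and these levels rest on only 73 fragments over the 4 PKP2_het libraries and 59 over the 4 WT libraries.

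On the other side, YARS2, the mitochondrial tyrosyl-tRNA synthetase, starts 137 kb from the PKP2 start and was the next expressed gene. It stood at 2.65, 2.93, 1.11 and 3.15 FPKM in PKP2_het and at 2.71, 2.78, 3.06 and 3.23 FPKM in WT. PKP2_het replicate 1 lay just below the wild-type range and replicate 3 far below it. Its log2 fold change came to -0.24 (standard error 0.20, limma adjusted p = 0.662) and was -0.01 without that library.

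DNM1L, the GTPase DRP1 that divides mitochondria, starts 146 kb from the PKP2 start. It stood at 15.0, 13.6, 9.70 and 15.6 FPKM in PKP2_het and at 12.1, 13.4, 14.9 and 15.0 FPKM in WT. Only PKP2_het replicate 3 fell outside the wild-type range on the low side, and replicates 1 and 4 lay at or above the highest WT library. The log2 fold change was -0.05 with a 95% interval from -0.39 to 0.29 (limma adjusted p = 0.907), and 0.09 without replicate 3. The annotated bodies of YARS2 and DNM1L overlap by 13481 bases on opposite strands, and whether the counting used strand is not given in the sources used here, so fragments in that stretch may not be separated between them.

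Further out on that side, FGD4, which encodes the Cdc42 exchange factor frabin, and BICD1, a cargo adaptor of the dynein motor, were below the filter. FGD4 averaged 0.318 FPKM in PKP2_het against 0.34 FPKM in WT. BICD1 stood at 0.869, 0.545, 0.567 and 0.478 FPKM in PKP2_het and at 0.378, 0.239, 0.507 and 0.212 FPKM in WT. PKP2_het libraries were the higher ones on average for BICD1, but the ranges overlapped. The noncoding RNA LOC102165844 between them was under 0.04 FPKM in every library.

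KIAA1551, the retroelement silencing factor RESF1, starts 839 kb away. It stood at 4.03, 4.28, 6.95 and 5.07 FPKM in PKP2_het and at 6.84, 7.16, 6.27 and 4.99 FPKM in WT. In this gene PKP2_het replicate 3 was the highest library of its group, so leaving it out moved the difference away from 0. This gave a log2 fold change of -0.28 (standard error 0.16, limma adjusted p = 0.527), and -0.42 (limma adjusted p = 0.134) without it.

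At lower coordinates the neighbourhood of PKP2 was mostly silent in this tissue. SYT10, a synaptotagmin, averaged under 0.01 FPKM over the 8 libraries, and a tRNA gene and the protein-coding locus LOC110260582 nearby were at 0 in all of them. The pseudogene LOC100153979 reached at most 0.133 FPKM in any library. ALG10, a glucosyltransferase that completes the sugar precursor of N-glycosylation, was the next expressed gene, 1.01 Mb away. It stood at 5.29, 3.93, 3.36 and 3.91 FPKM in PKP2_het and at 3.61, 3.66, 4.56 and 3.13 FPKM in WT. The groups overlapped, and the log2 fold change came to 0.11 (standard error 0.14, limma adjusted p = 0.765).

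**Figure D2:**
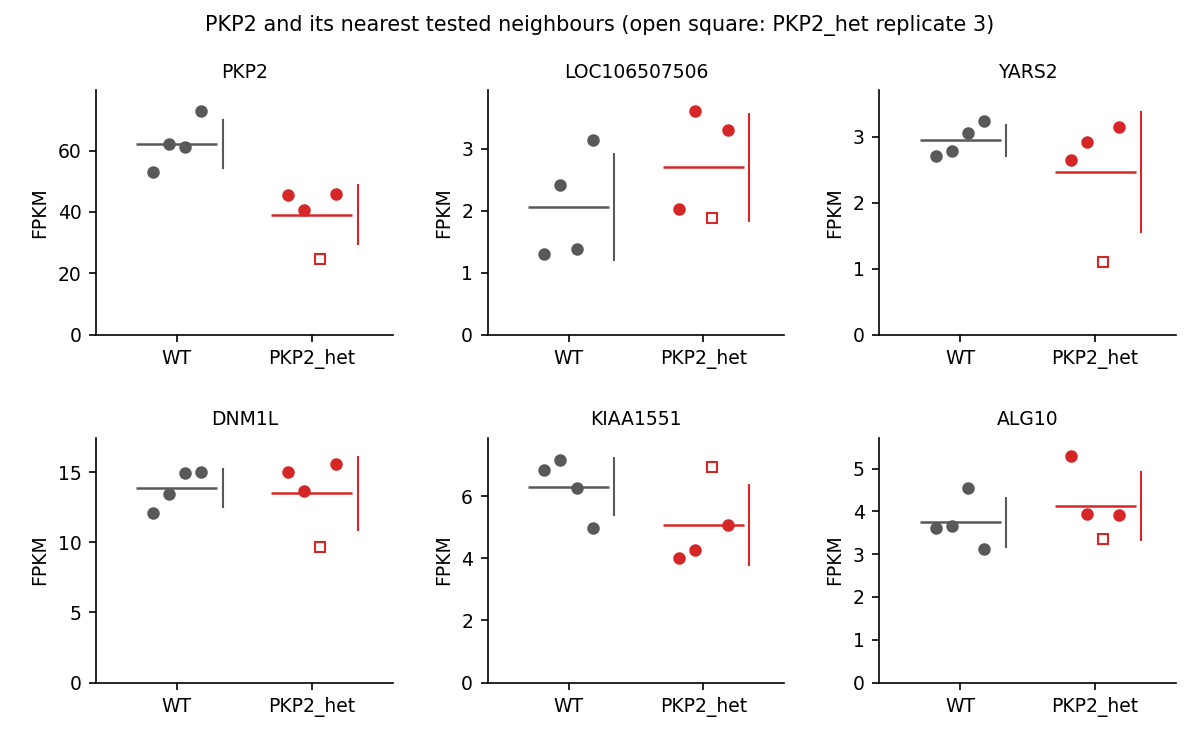
FPKM (vertical axes, linear and starting at 0) of PKP2 and of its 5 nearest tested members in each WT (grey) and PKP2_het (red) library. Horizontal lines are means, vertical bars 1 SD, and the open square is PKP2_het replicate 3. Only PKP2 separates the groups.

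PPFIBP1, which encodes the scaffold protein liprin beta 1, was the member whose call depended on a single library. It starts 4.61 Mb from the PKP2 start at higher coordinates. It stood at 61.4, 58.6, 40.1 and 70.8 FPKM in PKP2_het and at 39.8, 41.1, 35.1 and 43.6 FPKM in WT. PKP2_het replicates 1, 2 and 4 lay above every WT library, and replicate 3 lay within the WT range. The means were 57.7 ± 12.8 FPKM and 39.9 ± 3.56 FPKM (SD, n = 4 each), a log2 fold change of 0.50 (standard error 0.17, limma adjusted p = 0.242).

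Without PKP2_het replicate 3 the PPFIBP1 log2 fold change was 0.66 (limma adjusted p = 0.0165). It was then the 1 called member of 58, against 2.92% of all tested genes called in that fit. This setting was chosen as 1 of 18 alternatives, in the other 17 of which PPFIBP1 was not called. Its neighbour REP15, a binding protein of the small GTPase RAB15, overlaps the end of PPFIBP1 by 166 bases on the same strand. REP15 stood at 0.407, 0.390, 0.648 and 0.748 FPKM in PKP2_het and at 0.223, 0.319, 0.219 and 0.192 FPKM in WT. Its groups did not overlap, but its level was below the filter and rested on 133 and 62 fragments per group.

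STK38L, the NDR2 kinase of a Hippo-like pathway, lies 5.07 Mb away and behaved similarly with respect to replicate 3. It stood at 33.4, 30.7, 15.3 and 31.3 FPKM in PKP2_het and at 24.5, 21.9, 26.1 and 24.2 FPKM in WT. The 3 other knockout libraries lay above all WT libraries, and replicate 3 lay below all of them. The log2 fold change was 0.13 (limma adjusted p = 0.822), and 0.38 (limma adjusted p = 0.0616) without replicate 3.

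LRRC10, a leucine-rich repeat protein of the cardiomyocyte Z-disc, had the most negative log2 fold change of the members, 7.55 Mb from PKP2 at lower coordinates. It stood at 57.1, 58.3, 23.7 and 44.7 FPKM in PKP2_het and at 54.9, 66.7, 70.6 and 59.8 FPKM in WT. Replicates 3 and 4 of PKP2_het lay below the WT range, and replicates 1 and 2 lay inside it. The limma fit put the log2 fold change at -0.52 (standard error 0.26, adjusted p = 0.446), and -0.24 without replicate 3.

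SSPN encodes sarcospan, a membrane protein of the dystrophin complex, and lies 6.14 Mb away at higher coordinates. It stood at 24.2, 26.0, 10.1 and 25.9 FPKM in PKP2_het and at 23.8, 27.2, 30.6 and 26.2 FPKM in WT. The 3 other PKP2_het libraries all fell inside the WT range. The difference on the log2 scale was -0.39 (standard error 0.27, limma adjusted p = 0.590), and -0.08 without replicate 3. That library was low for these muscle genes while its summed cardiomyocyte markers, at 32865 FPKM, were the highest of the 8. Its summed desmosomal partners of PKP2 (JUP, DSP, DSG2 and DSC2) were the lowest of the 8, at 39.0 FPKM against 73.2 to 119 FPKM in WT. What lay behind these values was not tested.

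CASC1, also known as DNAI7, encodes a factor of axonemal dynein and had the smallest unadjusted p of the members (0.0119). It stood at 0.868, 1.14, 1.43 and 1.01 FPKM in PKP2_het and at 1.77, 1.53, 1.43 and 2.26 FPKM in WT. The groups met at PKP2_het replicate 3 and WT replicate 3. Its log2 fold change came to -0.38 (standard error 0.12, limma adjusted p = 0.208), and -0.45 without PKP2_het replicate 3. The annotated bodies of LRMP and LOC106507512 overlap CASC1 on the opposite strand.

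RAB3IP, the exchange factor Rabin8 for the GTPase RAB8, was the tested member whose groups did not overlap. It stood at 2.88, 2.43, 2.87 and 2.54 FPKM in PKP2_het and at 2.06, 2.29, 2.17 and 2.26 FPKM in WT. All 4 knockout libraries were above all wild-type libraries, by a small margin. This gave a log2 fold change of 0.20 (standard error 0.09, limma adjusted p = 0.363).

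The unnamed locus from 33166239 to 33167737 had the highest log2 fold change of the members. It stood at 1.09, 1.25, 2.57 and 1.35 FPKM in PKP2_het and at 0.673, 1.09, 0.474 and 0.824 FPKM in WT. PKP2_het replicate 3 was the highest of the 8, and the groups met at the lowest PKP2_het and the highest WT library. Its log2 fold change was 0.52 (limma adjusted p = 0.237), and 0.34 without replicate 3. All PKP2_het libraries reached the 1 FPKM of the filter, while in WT only the highest library did. The locus passed the filter through the group where it is higher, so its entry into the test was not independent of the difference.

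PTPRB encodes VE-PTP, a phosphatase of endothelial cells. It stood at 7.98, 8.05, 12.2 and 11.8 FPKM in PKP2_het and at 15.7, 13.4, 11.1 and 11.7 FPKM in WT, with overlapping groups and a log2 fold change of -0.36 (limma adjusted p = 0.421). Summed endothelial markers ranged from 174 to 343 FPKM in PKP2_het and from 208 to 423 FPKM in WT, with 0 of 5 called, and their part in this value was not tested.

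**Figure D3:**
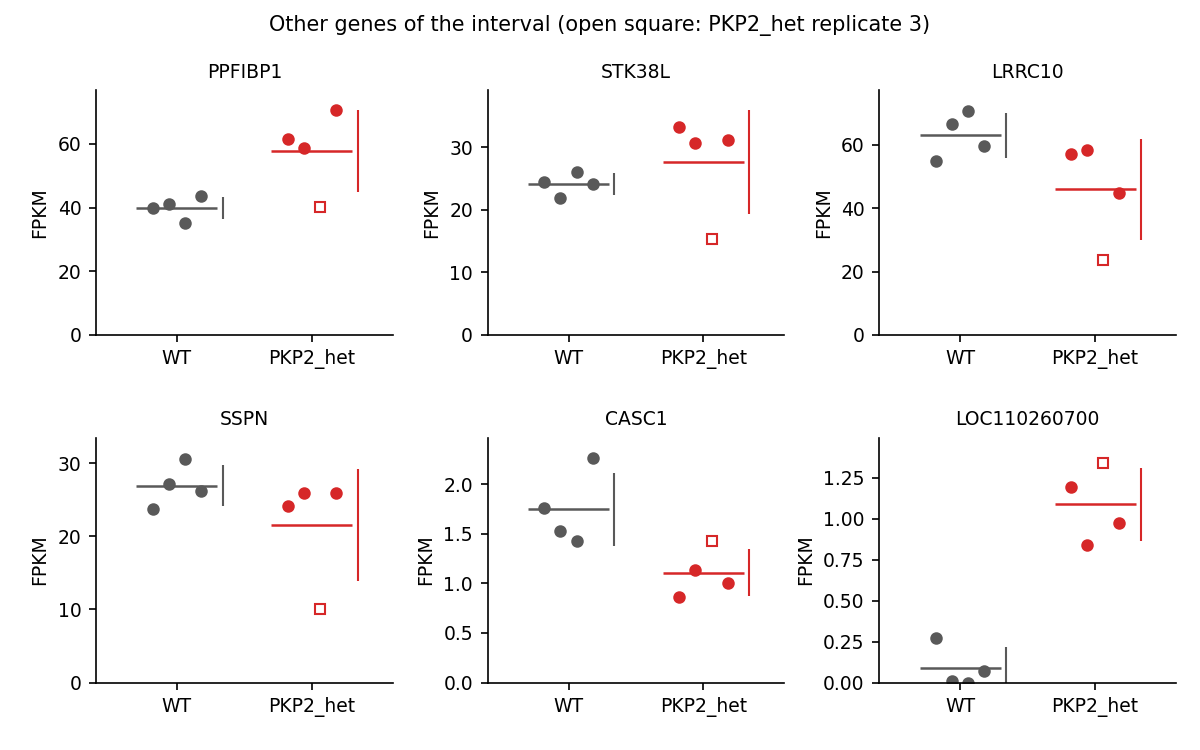
FPKM (vertical axes, linear and starting at 0) in each WT (grey) and PKP2_het (red) library for 6 members farther from PKP2, with means, 1 SD bars and PKP2_het replicate 3 as an open square. In STK38L, LRRC10 and SSPN replicate 3 is the lowest of the 8 libraries, and in LOC110260700 the groups do not overlap.

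None of the 6 most abundant members was called with all 8 libraries. PPFIBP1, LRRC10 and STK38L, described above, are among them. CCT2, a subunit of the chaperonin that folds actin and tubulin, stood at 66.7, 49.9, 38.1 and 52.4 FPKM in PKP2_het and at 53.6, 48.8, 50.6 and 55.3 FPKM in WT. The PKP2_het libraries spread on both sides of the WT libraries, at a log2 fold change of -0.03 (standard error 0.16), or 0.10 without replicate 3. NAP1L1, a histone chaperone, averaged 32.2 ± 3.68 FPKM and 30.1 ± 2.92 FPKM (SD, n = 4 each), with a log2 fold change of 0.09. ETFRF1, a regulator of the electron transfer flavoprotein of mitochondria, stood at 40.3, 35.0, 35.8 and 32.3 FPKM in PKP2_het and at 33.1, 29.1, 27.9 and 32.3 FPKM in WT. The groups overlapped only at their edges, with a log2 fold change of 0.22 (limma adjusted p = 0.458).

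Members were also read by their roles, from lists that cover 43 of the 149 members, of which 30 were tested. Of 6 tested genes of mitochondria and energy metabolism, 1 was higher and 5 were lower in PKP2_het by their estimate, and the list's median log2 fold change was -0.09. In this list MRPS35, a protein of the small mitochondrial ribosome subunit, averaged 14.3 FPKM in PKP2_het and 14.4 FPKM in WT, and FAR2, a fatty acyl-CoA reductase, 4.29 and 4.79 FPKM. Without PKP2_het replicate 3 the split was 3 and 3, with a median of 0.04. In the list of cytoskeleton, trafficking and membrane, 7 of 15 tested genes were positive and 8 negative (median -0.04). PPFIBP1 and CASC1 were the 2 with an unadjusted p under 0.05, which is 13.3% against 12.8% of all tested genes. Without PKP2_het replicate 3 this list had 9 positive and 6 negative genes (median 0.06) and 1 called, PPFIBP1. An unadjusted p under 0.05 was then seen for 4 of its genes (26.7% against 16.6% of all tested genes). These 4 include KIAA1551, described above as a silencing factor, and STK38L, which is also in the signalling list, so the share says little about the role. ERGIC2, which acts between the endoplasmic reticulum and the Golgi, averaged 8.33 and 9.55 FPKM.

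The 5 tested signalling genes had a median of -0.04. Among them ITPR2, a calcium channel of the endoplasmic reticulum, averaged 2.90 FPKM in PKP2_het and 3.15 FPKM in WT. The list of chromatin, transcription and RNA also held ETNK1 and C2CD5, which have other functions, and 2 of its 6 tested genes were positive (median -0.04). Its Mediator subunit MED21 averaged 3.66 and 3.75 FPKM, its Integrator subunit INTS13 4.80 and 5.32 FPKM, and its SIN3 complex subunit FAM60A 1.39 and 1.72 FPKM. None of the 4 lists held a called gene with all 8 libraries.

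PKP2_het replicate 3 was the library that deviated most in the members. It was the lowest library of its group in 36 of 58 tested members, or 62.1%, against 44.6% of all tested genes. Its median deviation from the mean over the 8 libraries was -0.23 on the log2 scale in the members and -0.06 over all tested genes. Without it, 35 of 58 members had a positive log2 fold change, and their median was 0.06 beside 0.01 for all tested genes. The sign changed for 8 members, turning positive for CCT2, RAB21, TBC1D15, DNM1L, AMN1, DENND5B and MRPS35 and negative for ZFC3H1. An unadjusted p under 0.05 was then seen for 8 members, or 13.8%, against 16.6% of all tested genes.

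With replicate 3 left out, the groups did not overlap for 7 members (RAB3IP, THAP2, TMEM19, CCDC91, PPFIBP1, STK38L and CASC1), which is 12.1% against 15.7% of all tested genes. TMEM19, a transmembrane protein, stood at 19.9, 15.9, 7.83 and 18.0 FPKM in PKP2_het and at 9.48, 11.1, 14.1 and 12.8 FPKM in WT. Its replicate 3 was the lowest of the 8 libraries while the other 3 were the highest. For TMEM19 the log2 fold change was 0.29 with all libraries (limma adjusted p = 0.673) and 0.56 without replicate 3 (limma adjusted p = 0.0725).

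**Figure D4:**
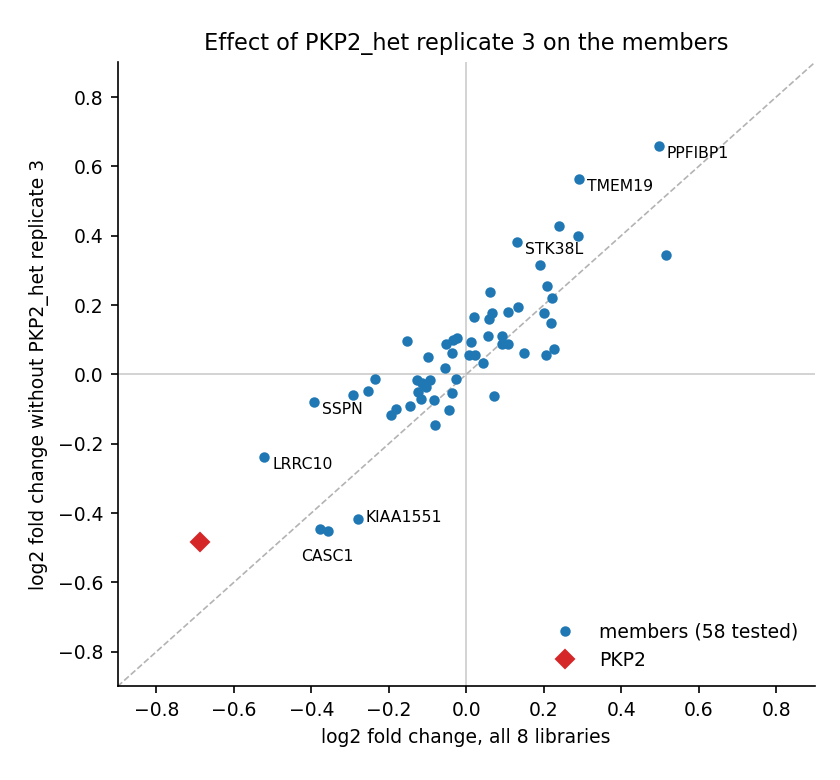
Log2 fold changes of the 58 tested members (blue) and PKP2 (red diamond), PKP2_het minus WT, with all 8 libraries (horizontal axis) and without PKP2_het replicate 3 (vertical axis). The dashed line marks equal values. STK38L and TMEM19 lie above it with larger positive values without that library, and LRRC10 and SSPN lie closer to 0 without it.

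The other 91 members were too low for the test, 39 of them at 0 in all 8 libraries and 73 under 0.1 FPKM on average. The highest mean among the 91 was 0.875 FPKM. The groups did not overlap for 3 of these 91, against 3.67% of all genes below the filter. These were REP15, the noncoding RNA LOC110260707, which had 0 fragments in PKP2_het and 15 in WT, and the noncoding RNA LOC110260700. The last of these was named after its values were seen.

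LOC110260700 lies on the forward strand from 32217829 to 32226718, 9.21 Mb from the PKP2 start at lower coordinates. It stood at 1.19, 0.841, 1.34 and 0.97 FPKM in PKP2_het and at 0.272, 0.0075, 0 and 0.0725 FPKM in WT. All 4 knockout libraries were above all wild-type libraries, with 1023 fragments in PKP2_het and 73 in WT, 52 of the latter in WT replicate 1. The 0 fragments in WT replicate 3 allow up to 0.0106 FPKM at 3 fragments, for counting error only. The mean was 12.3 times that of WT, and 40.8 times that of WT without WT replicate 1.

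This RNA reached 1 FPKM in only 2 libraries and so was not among the 10757 tested genes. With a filter of at least 10 fragments in 4 libraries, added after the data were seen, 81 members were tested. LOC110260700 was then the 1 called member, against 2.17% of all genes tested with that filter, at a log2 fold change of 0.94 (standard error 0.10, limma adjusted p = 0.00163). The gene was singled out because its groups did not overlap, and it passes that filter through the 4 PKP2_het libraries where it is high, so these values describe it and are no independent test. With no filter on low values its limma adjusted p was 0.00789. Leaving out each of the 8 libraries in turn, with the tested genes still chosen on all 8, gave limma adjusted p values from 0.00166 to 0.00914. For a gene picked by its separation these values add no independent support.

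Genes beside LOC110260700 did not separate the groups. DYRK2, a protein kinase, stood at 5.95, 6.79, 4.20 and 6.23 FPKM in PKP2_het and at 4.08, 4.66, 6.67 and 4.43 FPKM in WT, with overlapping groups (limma adjusted p = 0.669). An unnamed locus from 32094271 to 32105732 stood at 0.940, 1.05, 0.190 and 0.446 FPKM in PKP2_het and at 0.0694, 0.0745, 0.539 and 0.126 FPKM in WT, also with overlap. IFNG, the gene of the cytokine interferon gamma, averaged 0.0517 and 0.0114 FPKM. Tested members lie between LOC110260700 and PKP2. On the whole lower-coordinate side, 0 of 29 tested members were called, against 1.86% of all tested genes. At that share a set this small would often hold no called gene.

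Across chromosome 5, all 11 called genes lay outside the interval, among 493 tested there, with a median log2 fold change of -0.01. The nearest was LOC102167026, 16.7 Mb from the PKP2 start at lower coordinates, which averaged 12.8 ± 2.14 FPKM (SD, n = 4) in the knockout libraries against 0.104 ± 0.207 FPKM (SD, n = 4) in wild type. At higher coordinates the nearest was CLEC12A, a lectin receptor of myeloid cells, 20.5 Mb away, which averaged 0.0713 and 1.75 FPKM. These 2 genes lie 37.2 Mb apart with 113 tested genes between them. As they are the nearest called genes on each side, 0 called between them follows from that choice and is no result. LOC110260700, called with other filters, lies between them. The share of called genes on the rest of the chromosome, 2.23%, was close to the 1.85% on all other chromosomes and scaffolds.

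**Figure D5:**
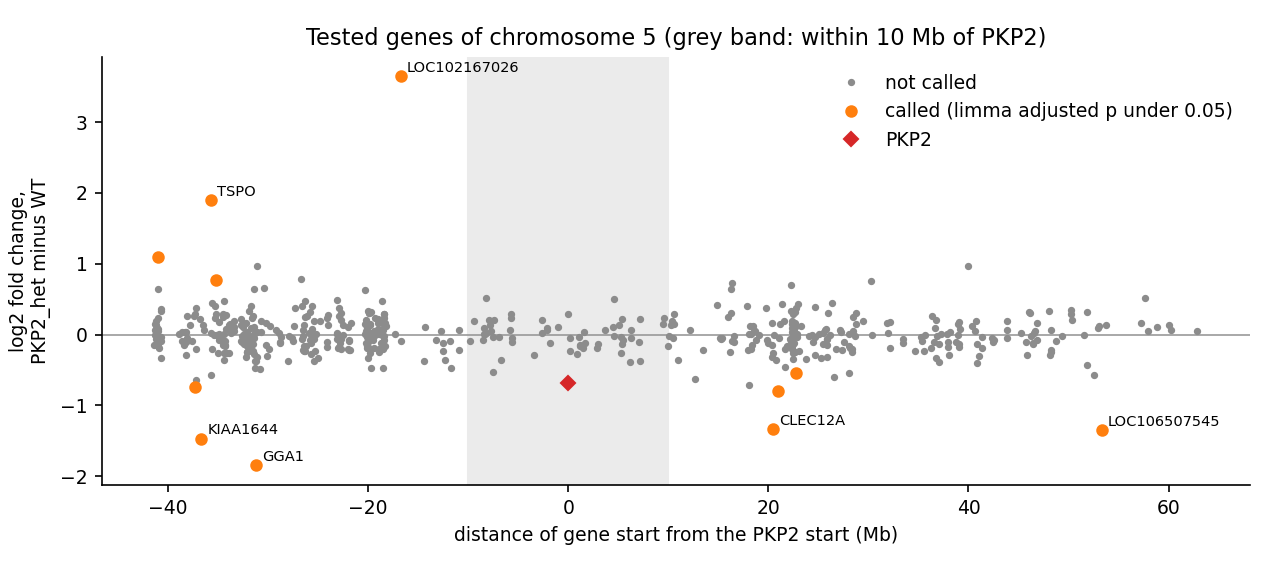
Log2 fold change, PKP2_het minus WT (vertical axis), of the tested genes of chromosome 5 against the distance of the gene start from the PKP2 start in Mb (horizontal axis). Grey points were not called, the 11 orange points were called at a limma adjusted p under 0.05, and the red diamond is PKP2. No orange point lies in the grey band within 10 Mb.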

How the data were processed

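Right ventricular RNA was sequenced as 150 bp paired reads, per the labels' protocols, and aligned with HISAT2 2.0.5, per the submitters' processing notes. For the counting program, strand setting and genome build, the sources used here give nothing. The authors deposited FPKM values, which FPKM times gene length showed to be whole multiples of 1 fragment (100% of values, within 0.01 fragments), scaled by median-of-ratios factors over 15715 genes. Of the members, 147 of 149 matched RefSeq's Sscrofa11.1 annotation with the same start and end.

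Genes with at least 1 FPKM in 4 of 8 libraries were compared as log2(FPKM + 1) with limma 3.58.1 (R 4.3.3), with a variance trend and no covariate, two-sided, with Benjamini-Hochberg adjustment over all 10757 tested genes. Fold changes on this scale understate changes of low genes. On simulated data with the same group sizes (10747 genes tested), 74.5% of 2-fold and 94.9% of 4-fold changes were recovered, and 6.86% of calls were unchanged genes. The simulation drew each gene independently, without a deviation shared across genes like that of PKP2_het replicate 3. These rates may therefore not hold for the real libraries. Depth, 23637697 to 31313628 fragments, limits genes under 1 FPKM.

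The members, lists and tests were chosen with earlier results of these data known. Named genes are the 6 nearest on each side, any called, the 10 with the smallest p, the 5 largest changes, the 6 most abundant and up to 4 of each role list. LOC110260700 and its neighbours, LOC110260707, REP15, TMEM19, THAP2, CCDC91, PHLDA1, the members whose sign changed and genes outside the interval were named after their values were seen. Role lists follow the human gene order and hold few lower-coordinate members. Alternatives were pseudocounts, filters, scalings, voom on recovered fragments, leaving out each library in turn, and a replicate block. The filter on 10 fragments, and counts without PKP2_het replicate 3, were added after seeing the data. The values of 1 named member are not reported here.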

Additional observations from a re-analysis of the deposited data

Results flagged for a closer look

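Among groups of 4 libraries, 66 were examined for a value far from the other 3, and 4 had one, where chance gives about 1 in 20. In 3 of the 4 the library was PKP2_het replicate 3. STK38L stood at 15.3 FPKM there and at 30.7 to 33.4 FPKM in the other PKP2_het libraries. SSPN stood at 10.1 FPKM there and at 24.2 to 26.0 FPKM in the others. C2CD5, a protein of glucose transporter vesicles, was higher in that library, at 11.6 FPKM against 7.05 to 7.40 FPKM. The last was MED21 in WT replicate 2, where it stood at 3.44 FPKM and the remaining WT libraries at 3.82 to 3.88 FPKM.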

How the results depend on the processing

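Under the alternatives, 0 to 1 members were called. The 1 member was LOC110260700 with no filter and with at least 10 fragments in 4 libraries, and PPFIBP1 without PKP2_het replicate 3. Of 491 values of the 28 tested named members, 490 kept their call, 1 gained one (PPFIBP1) and 13 changed sign. Genes called higher over the whole table numbered 124, and 51 with at least 5 FPKM, 195 with at least 10 fragments, 50 with libraries rescaled to equal sums, and 75 to 195 on leaving out each library. Genes called lower numbered 76, and 37, 125, 45 and 40 to 119 under these settings. Rescaling moved the members' median log2 fold change to -0.20 and that of all tested genes to -0.23. Replicate numbers did not pair the libraries (correlations of -0.39, 0.03, -0.23 and 0.20). With a replicate block, 66 genes were called higher and 39 lower, 0 of them members, and the PKP2 adjusted p was 0.239. Without PKP2_het replicate 3, 7 members had groups that did not overlap (1 with it), and 8 had an unadjusted p under 0.05 (4 with it). The causes were not tested. Members under 1 FPKM, noncoding RNAs above all, are limited by depth.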
